A study of Mus musculus with 2 samples.

Results

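The data described here concern the TGF-beta pathway of mouse 5cc7 T cells, taken as 10 genes: the ligand gene Tgfb1, the receptor genes Tgfbr1, Tgfbr2 and Tgfbr3, the signal transducer genes Smad2, Smad3, Smad4 and Smad7, and the corepressor genes Ski and Skil. Every probe set annotated to 1 of these symbols alone was taken, which gave 24 of the 45037 probe sets on the array and 10 of the 18193 named genes. The receptor of 5cc7 cells is specific for a moth cytochrome c peptide. Per the labels, this peptide (MCC) was used to stimulate them in vitro, and RNA was taken on day 5, when they were blasts. RNA was hybridised to 2 Affymetrix mouse 430 2.0 arrays, set 1 and set 2, which form 1 group with no untreated or resting cells beside it. Strain, age, sex, the promoter of any receptor transgene, the number of animals and any TGF-beta in the culture medium are unknown, being not given in the sources used here. Nothing in the labels says that each array holds its own culture, and the difference between them may be technical.

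TGF-beta is a secreted cytokine that restrains T cell proliferation and effector differentiation and, with other signals, directs the formation of regulatory, Th17 and tissue-resident T cells. The cytokine binds the type II receptor, which phosphorylates the type I receptor, and this kinase in turn phosphorylates SMAD2 and SMAD3. These form complexes with SMAD4 that enter the nucleus, while SMAD7 blocks the receptor and SKI and SKIL (SnoN) block SMAD complexes on DNA. SMAD7 and SKIL are themselves induced by the pathway and so close a feedback loop. The arrays measure transcripts, not phosphorylated SMAD proteins, so signalling itself was not measured.

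Gene starts of 5 of the 10 genes were taken from RefSeq (build GRCm38.p6), as 6 windows of 300 bases, each from 250 before to 50 after a start. A chromosome other than those given below was left out of this search. Any window of the 10 genes on it is not counted, so 5 is not the number of genes with a RefSeq start. Of the 6 windows, 4 are printed to show windows with GC boxes beside windows with a SMAD box. They are those of the ligand, of the type II receptor, and of both annotated starts of the type I receptor. Capitals mark the SMAD box CAGAC, the short element that SMAD3 and SMAD4 contact, and the GC box GGGCGG, the element of Sp1-family factors, each on either strand. The windows lie at chr7:25686752-25687051 (plus strand, Tgfb1), chr9:116175314-116175613 (minus strand, Tgfbr2), chr4:47352972-47353271 (plus strand, Tgfbr1, upstream start) and chr4:47385966-47386265 (plus strand, Tgfbr1, downstream start).
Tgfb1: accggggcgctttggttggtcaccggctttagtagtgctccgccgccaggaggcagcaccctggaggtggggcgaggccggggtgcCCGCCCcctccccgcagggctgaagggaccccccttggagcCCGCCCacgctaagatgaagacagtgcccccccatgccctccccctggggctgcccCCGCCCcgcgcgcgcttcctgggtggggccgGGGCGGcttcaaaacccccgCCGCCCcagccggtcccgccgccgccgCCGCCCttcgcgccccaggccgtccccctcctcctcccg
Tgfbr2: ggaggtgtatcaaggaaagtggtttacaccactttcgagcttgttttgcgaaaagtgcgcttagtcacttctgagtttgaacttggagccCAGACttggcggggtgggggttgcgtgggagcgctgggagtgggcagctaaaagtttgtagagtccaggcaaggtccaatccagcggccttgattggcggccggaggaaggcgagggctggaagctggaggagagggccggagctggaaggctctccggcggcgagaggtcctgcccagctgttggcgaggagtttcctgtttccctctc
Tgfbr1 upstream start: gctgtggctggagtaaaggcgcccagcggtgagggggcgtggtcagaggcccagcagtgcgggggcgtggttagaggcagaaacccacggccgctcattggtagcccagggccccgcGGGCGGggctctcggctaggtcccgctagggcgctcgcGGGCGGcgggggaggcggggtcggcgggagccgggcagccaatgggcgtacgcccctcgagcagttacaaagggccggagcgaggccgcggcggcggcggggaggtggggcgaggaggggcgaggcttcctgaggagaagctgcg
Tgfbr1 downstream start: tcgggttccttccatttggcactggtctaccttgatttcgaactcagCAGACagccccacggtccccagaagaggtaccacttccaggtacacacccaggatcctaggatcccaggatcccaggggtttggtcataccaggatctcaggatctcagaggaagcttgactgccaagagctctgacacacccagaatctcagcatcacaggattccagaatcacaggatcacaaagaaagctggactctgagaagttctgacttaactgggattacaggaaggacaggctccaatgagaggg

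The Tgfb1 window held 6 GC boxes and 0 SMAD boxes at 77.0% G and C. The Tgfbr2 window held 0 GC boxes and 1 SMAD box, whose first base lies at position -160 (the base before the start being -1), at 59.0% G and C. The upstream Tgfbr1 window held 2 GC boxes and 0 SMAD boxes at 74.7% G and C, whereas the downstream one held 0 GC boxes and 1 SMAD box, at position -203, at 52.0%. The windows of Smad3 and Ski, which are not printed, held 2 and 6 GC boxes and 0 SMAD boxes each. None of the 6 windows held the palindrome GTCTAGAC or the AP-1 site TGACTCA. Over all 32851 windows, 49.6% held a SMAD box, 35.7% a GC box, 5.2% an AP-1 site and 0.213% the palindrome. No chromosome was left out of these shares. Median G and C content was 52.7%. Taking the first listed window of each named gene, a GC box was present in 66.1% of 7060 genes above background in these blasts and in 42.4% of 7392 genes not above background. For the SMAD box the shares were 47.1% and 50.6%. Median G and C content of the same windows was 61.3% in the genes above background and 55.7% in the others, and its part in the GC box shares was not tested. These matches describe letters in a window and not bound sites.

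Each probe set has 1 deposited intensity per array, in arbitrary units. Median intensities were 36.4 for set 1 and 37.9 for set 2. To call signal, a bound was set on each array at the 95th percentile of 64 probe sets for genes of liver, eye, pancreas and kidney, which gave 53.9 on set 1 and 55.7 on set 2. Above background means brighter than this bound on both arrays for a probe set, and for a gene that 1 or more of its probe sets is so. A separate list of genes of other organs had 7 of 36 genes above the bound, with the thyroid gene Tg highest at 432 ± 18.7 (SD, n = 2), so a probe set for a gene of another organ can read well over the bound. The brightest probe sets of Tgfbr1, Smad2, Smad3, Smad7 and Ski read below that value, and for these 5 genes a call above background is weak evidence of the transcript. The same limit holds for each gene of the pathway and marker lists below that reads under that value. All 7 measured markers of T cells were above background, with Cd3d at 4671 ± 299, Thy1 at 3449 ± 139, Cd3g at 2843 ± 11.4 and Cd28 at 2819 ± 122. The values behind all statements below are the mean ± SD of the 2 arrays, and no test between conditions was possible.

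All 10 genes were above background, and so every step from ligand to nuclear corepressor had at least 1 probe set with signal on both arrays. Of all named genes 47.4% were above background, and 59.3% of those that, like each of the 10, had 2 or 3 probe sets. At the level of probe sets 18 of 24 were above background, against 38.0% of all probe sets. The 18 read from 1.36 to 21.0 times the bound on set 1, with a median of 5.23, and from 1.08 to 18.2 times on set 2, with a median of 5.41. In 5 genes every probe set was above background, namely Tgfb1, Tgfbr3, Smad4, Smad7 and Ski. In Tgfbr1, Tgfbr2, Smad2, Smad3 and Skil some probe sets were above it and some were not. Among all genes with 2 or 3 probe sets and a call above background, 43.3% had every probe set above it.

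**Figure D1:**
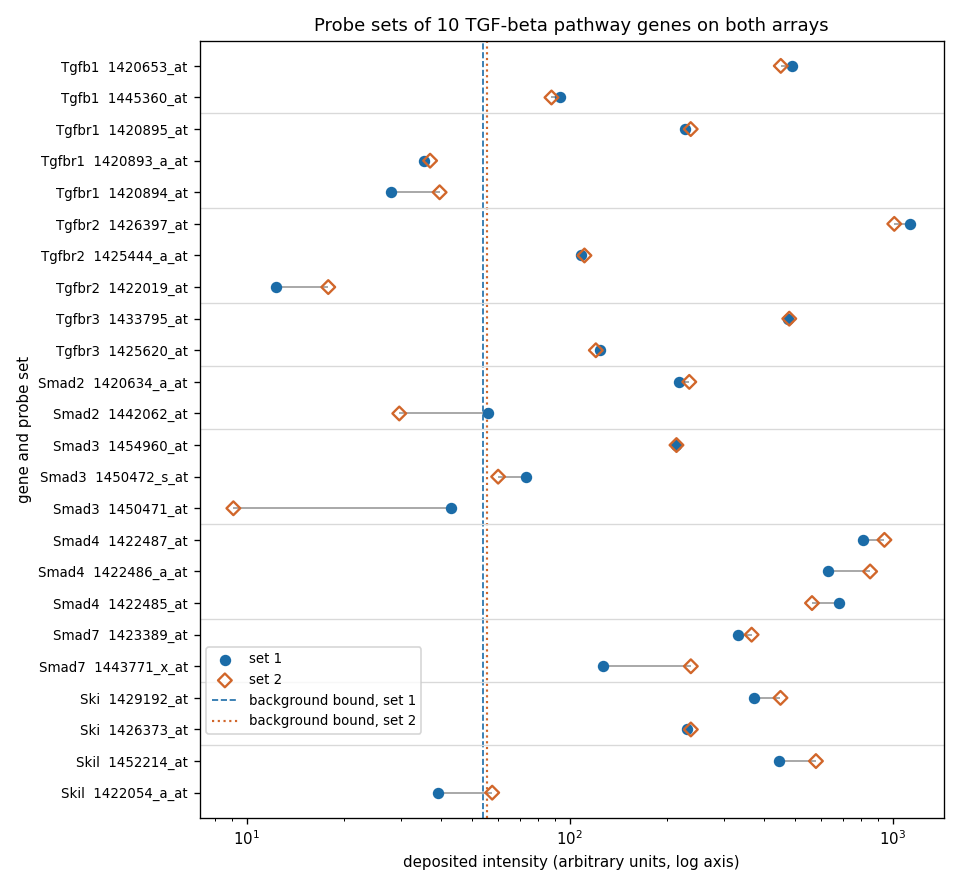
Deposited intensity (horizontal log axis, arbitrary units) of the 24 probe sets of the 10 genes, grouped by gene from ligand to corepressors. Filled circles are set 1, open diamonds set 2, grey lines join the 2 arrays and vertical lines are the background bounds of 53.9 and 55.7. Each gene has at least 1 probe set to the right of both bounds, and 6 probe sets do not exceed both.

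Tgfb1 encodes the main TGF-beta of immune cells. Its brighter probe set, 1420653_at, read 489.6 on set 1 and 450.8 on set 2, a mean of 470 ± 27.4. The other, 1445360_at, read 93.3 and 87.9. Both probe sets were above background on both arrays and both were slightly higher on set 1, by 0.14 and 0.11 on the log2 scale after centring. Each probe set of the ligand gene thus passed the bound, and the arrays differed little. The call of 1445360_at is weak evidence, since it read below the thyroid gene Tg at 432. It was also under the 99th percentile bounds of 96.8 on set 1 and 116.5 on set 2. TGF-beta is secreted in a latent form, so its transcript does not tell how much active cytokine the cultures held.

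Tgfbr2, the type II receptor that binds the ligand first, had the brightest of its 3 probe sets, 1426397_at, at 1132.4 on set 1 and 1012.6 on set 2, a mean of 1072 ± 84.7. This was 21.0 and 18.2 times the bound. Another, 1425444_a_at, read 108.6 and 111.2, and the remaining 1422019_at read 12.3 and 17.9, below the bound on both arrays. The 3 probe sets of this gene thus ran from far above the bound to well below it. In the platform annotation the dimmest is the only one of the 3 whose representative sequence is a RefSeq mRNA. Probe sequences were not used here, and which part or isoform of the transcript each probe set reads was not tested.

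Tgfbr1 encodes the type I receptor kinase (ALK5) that phosphorylates SMAD2 and SMAD3. Its call rested on 1 of 3 probe sets, 1420895_at, which read 228.5 on set 1 and 237.2 on set 2. The other probe sets were below the bound on both arrays, 1420893_a_at at 35.5 and 37.0 and 1420894_at at 27.9 and 39.6. All 3 carry the same representative sequence in the annotation, yet they gave opposite calls. With the median over its probe sets as the level, 37.55, Tgfbr1 was the only 1 of the 10 genes not above background.

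Tgfbr3, betaglycan, presents the ligand to the type II receptor and has no kinase activity. Its probe sets read 474.0 on set 1 and 478.9 on set 2 for 1433795_at and 124.2 and 120.6 for 1425620_at. Both were above background, and the arrays differed by no more than 0.07 on the log2 scale after centring. Each of the 3 receptor genes thus had at least 1 probe set above background on both arrays. For Tgfbr1 this was 1 of 3 probe sets, which read below the thyroid gene Tg and is weak evidence.

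Smad2 and Smad3 encode the transducers that the type I receptor phosphorylates. Smad2 read 217.6 on set 1 and 234.8 on set 2 with 1420634_a_at. Its other probe set, 1442062_at, read 56.1 and 29.7, just above the bound on set 1 and below it on set 2. Smad2 was therefore called by 1 of 2 probe sets. Smad3 read 214.3 on both arrays with 1454960_at. The other Smad3 probe sets were near or below the bound: 1450472_s_at read 73.1 and 60.1, and 1450471_at read 43.0 and 9.1. Smad3 was thus called by 2 of 3 probe sets, and 1 of these was at only 1.08 times the bound on set 2. The gap of 1450471_at between the arrays, 2.27 on the log2 scale, was the widest of the 24, at intensities below both bounds.

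Smad4, the partner shared by TGF-beta and BMP transducers, was above background with all 3 probe sets. They read 812.1 on set 1 and 943.8 on set 2 for 1422487_at, 631.0 and 852.4 for 1422486_a_at, and 681.5 and 563.2 for 1422485_at. Each was more than 10 times the bound on both arrays. The arrays did not differ one way: 1422487_at and 1422486_a_at were lower on set 1, by -0.19 and -0.41 on the log2 scale, and 1422485_at was higher on set 1, by 0.30.

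Smad7, the inhibitory SMAD that directs ubiquitin ligases to the receptor, was above background with both probe sets. The brighter, 1423389_at, read 331.7 on set 1 and 366.2 on set 2. The other, 1443771_x_at, read 127.0 and 237.4. Its ID ending marks probes that can bind other transcripts, and of the 18 probe sets above background it alone differed more than 1.5-fold between the arrays (log2 difference -0.88). The brighter probe set differed by only -0.12, so the size of that gap was not shared within the gene.

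Ski and Skil encode corepressors that hold SMAD complexes inactive and are degraded when TGF-beta signals. Ski read 372.5 on set 1 and 449.8 on set 2 with 1429192_at and 231.8 and 237.4 with 1426373_at, both above background. Skil read 445.5 and 579.2 with 1452214_at. Its other probe set, 1422054_a_at, read 39.2 and 57.6 and exceeded the bound on set 2 alone. After centring, the 3 probe sets of the corepressor genes above background differed between the arrays by -0.25 and -0.01 for Ski and -0.35 for Skil on the log2 scale, none of them over 1.5-fold.

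Over the 18 probe sets above background the median absolute log2 difference between the arrays was 0.131, against 0.135 over all 17116 probe sets above background. Of the 18, 8 were higher on set 1 and 10 were lower after centring. More than 1.5-fold differences were found in 1 of 18, and in 2.81% of all probe sets above background. Among the 6 probe sets not above background the median absolute difference was 0.52, against 0.51 over all 27921 such probe sets. Centred differences lay all on the same side in 5 of the 7 genes with at least 2 probe sets above background. These were Tgfb1, Tgfbr3, Smad3, Smad7 and Ski. For Tgfbr3 and Smad3 this rests on centring. Before it, the Tgfbr3 probe sets lay on opposite sides and 1454960_at of Smad3 read the same on both arrays. Across all 3683 genes with at least 2 probe sets above background the share was 39.4%. These can have more such probe sets than the 7 genes do, and a share matched for their number was not computed. Differences of this size between 2 arrays of 1 group are a measure of precision only.

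**Figure D2:**
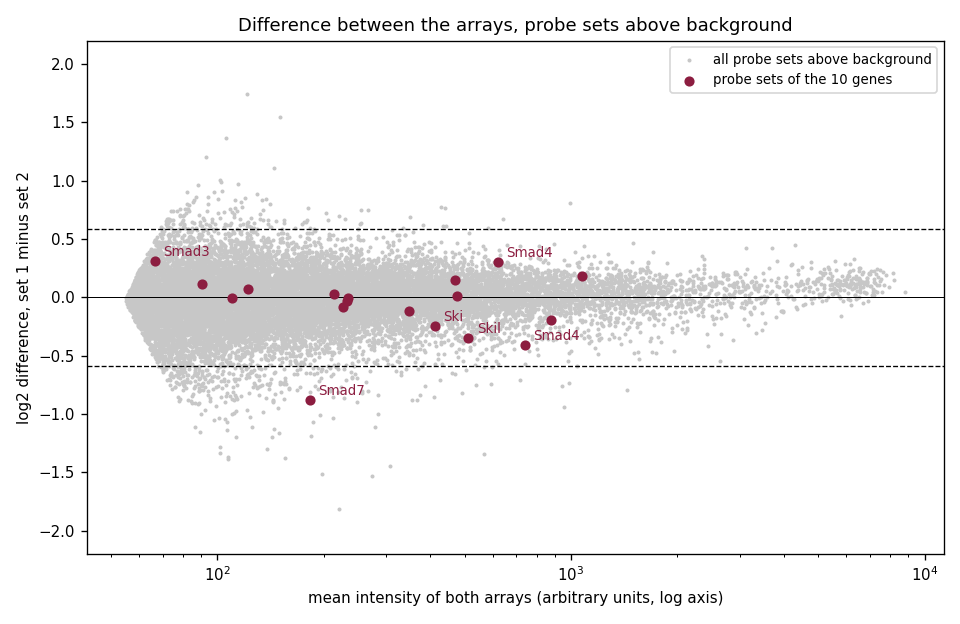
Log2 difference between the arrays, set 1 minus set 2 after centring, against mean intensity (log axis, arbitrary units) for the 17116 probe sets above background (grey) and the 18 of the 10 genes (dark red, with names where the difference exceeds 0.24). Dashed lines mark 1.5-fold, and 1 probe set of Smad7 lies beyond them at -0.88.

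The rest of the pathway was read from 8 lists written by role, of which 127 of 135 genes were measured and 80 (63.0%) were above background. SMAD cofactors and corepressors were above background in 21 of 23 cases, kinases, adaptors and GTPase genes that carry TGF-beta signals beside SMADs in 15 of 16, and ubiquitin, phosphatase and trafficking regulators in 15 of 20. Genes of ligand latency and activation were above background in 3 of 13 cases and other ligands in 1 of 11. Against these stand the 47.4% of all named genes and the 59.3% of those with 2 or 3 probe sets. Some list genes, such as Ppm1a with 8, have more probe sets, any of which can give the call. A share matched for their number was not computed.

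**Figure D3:**
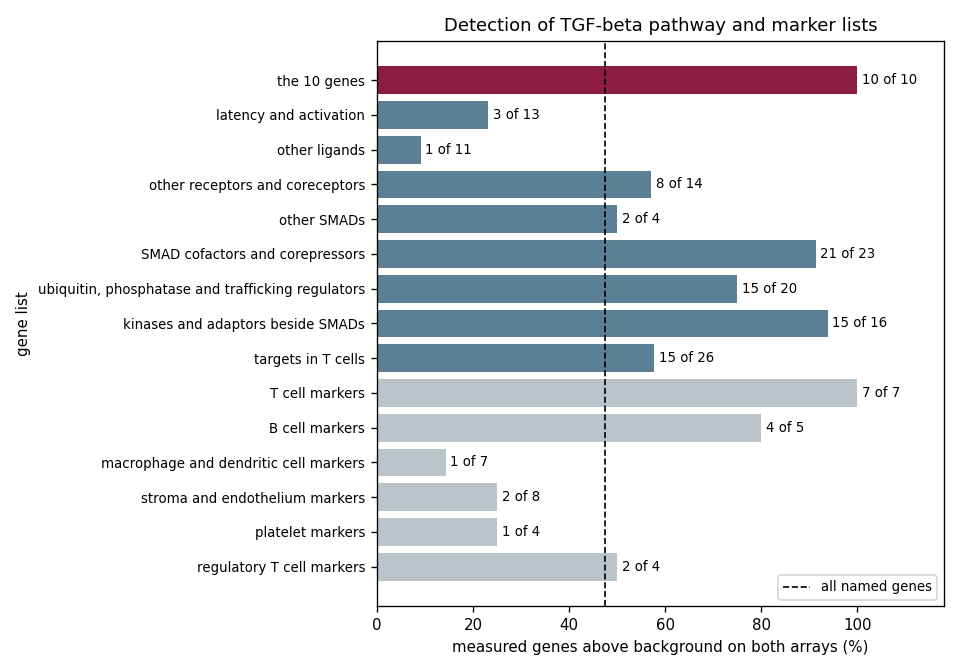
Share of measured genes above background on both arrays (horizontal axis, %) for the 10 genes, the 8 pathway lists and 6 marker lists, with counts at the bars. The dashed line is the 47.4% of all named genes, not matched for the number of probe sets per gene. The cofactor list and the list of kinases and adaptors reach 21 of 23 and 15 of 16, and the other ligands 1 of 11.

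Among genes that store or release latent TGF-beta, Itgav, the integrin alpha chain that binds the latent complex, was at 693 ± 40.2 with 1 of 5 probe sets above background. Nrros, which tethers latent TGF-beta on myeloid cells and microglia, was at 196 ± 3.96. Furin, the protease that cleaves the TGF-beta precursor, was at 169 ± 6.29. The integrin beta chains that pair with Itgav to activate the latent form, Itgb6 and Itgb8, were not above background at 11.5 ± 11.2 and 3.45 ± 3.61, and neither was the matrix tether gene Ltbp1 at 5.95 ± 4.60. Of the other ligands Inha, the inhibin alpha subunit, was the only one above background, at 81.2 ± 10.7. Bmp2, Bmp4 and Bmp6 were not, at 1.80 ± 0.424, 17.9 ± 8.91 and 4.05 ± 2.47. The sister ligand genes Tgfb2 and Tgfb3, chosen after their values were seen, were not above background either, at 21.2 ± 4.38 and 7.60 ± 3.54.

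Other receptors and coreceptors were above background in 8 of 14 cases (57.1%). The share was 47.4% over all named genes and 59.3% over those with 2 or 3 probe sets, so the list was not raised over the latter. Fkbp1a, whose protein FKBP12 binds the type I receptor and holds it inactive, was at 1542 ± 211. The receptor-associated gene Tgfbrap1 was at 219 ± 25.6, the activin type I receptor gene Acvr1b (ALK4) at 177 ± 6.08 and the BMP type II receptor gene Bmpr2 at 113 ± 18.1. Below the bound on at least 1 array were the activin receptor genes Acvr1c, Acvr2a and Acvr2b, at 33.5 ± 1.70, 47.3 ± 15.3 and 13.2 ± 10.5. Of the other SMAD genes, the BMP transducers Smad1 and Smad5 were above background at 128 ± 11.2 and 60.4 ± 7.85. Smad5 read 54.8 on set 1, just over the bound. The BMP transducer Smad9 and the inhibitor Smad6 were not above background, at 18.7 ± 2.55 and 19.1 ± 4.31. Smad7 thus passed the bound, whereas Smad6, read by 1 probe set only, did not. The brightest Smad7 probe set read below the thyroid gene Tg, so its call remains weak evidence of the transcript. Which inhibitory SMAD gene these cells express was not tested, since different probe sets cannot be compared for level.

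Of the SMAD cofactors and corepressors, Cbfb, the shared subunit of RUNX factors, was at 1164 ± 58.5. Hdac1, a histone deacetylase recruited by SKI, was at 783 ± 27.6, the SKI-interacting gene Snw1 at 774 ± 1.34 and the GC box factor gene Sp1 at 725 ± 28.2. Foxh1, the SMAD partner of the early embryo, and Atf3 were not above background, at 40.1 ± 19.0 and 42.9 ± 12.6. The widest gaps between the arrays were in E2f5, which read 96.3 on set 1 and 344.1 on set 2, and Zfyve9, the SARA anchor that brings SMAD2 and SMAD3 to the receptor, which read 62.8 and 132.5. Both stayed above the bound on each array.

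Among the regulators, the kinase gene Pdpk1 was at 602 ± 7.92, Trim33, a ubiquitin ligase that acts on SMAD4, at 590 ± 6.15, Rnf111 (Arkadia), which degrades SKIL and SMAD7, at 486 ± 4.81, and Strap, which stabilises SMAD7 at the receptor, at 427 ± 18.0. The endocytosis genes Cav1 and Dab2 and the ubiquitin ligase gene Nedd4l stayed under the bound on at least 1 array, at 24.2 ± 13.9, 47.8 ± 3.11 and 52.9 ± 10.2. Of the kinases, adaptors and other genes beside SMADs, the small GTPase gene Rhoa was at 1346 ± 72.5, its effector kinase gene Rock1 at 1069 ± 33.6, the TAK1-binding gene Tab2 at 994 ± 53.2 and Mapk14 (p38 alpha) at 606 ± 1.48. Traf4 was the only measured gene of that list not above background, at 43.9 ± 5.09.

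Genes known to respond to TGF-beta in T cells had signal above background in 15 of 26 cases (57.7%). The share was 47.4% over all named genes and 59.3% over those with 2 or 3 probe sets. Il7r, the interleukin 7 receptor gene, was at 2894 ± 83.4, Ctla4, an inhibitory receptor, at 1836 ± 12.1, the pro-apoptotic Bcl2l11 at 893 ± 92.3 and the transcription regulator Id2 at 831 ± 113. Itgae, the CD103 integrin chain that TGF-beta induces and which was chosen after its value was seen, read 341.8 on set 1 and 369.7 on set 2, with 2 of 2 probe sets above background. Foxp3, which TGF-beta induces as regulatory T cells form and which is named as a marker of these, read 18.6 and 12.9, below the bound on both arrays. Il17a read 143 and 81.8, above the bound with a log2 difference of 0.83. Ahr, Ccr8 and Cdkn2b were not above background at 30.3 ± 3.96, 38.4 ± 3.32 and 4.85 ± 0.636. The list mixes genes that TGF-beta raises and genes that it lowers, and without unstimulated or TGF-beta-treated cells no direction can be read from it.

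**Figure D4:**
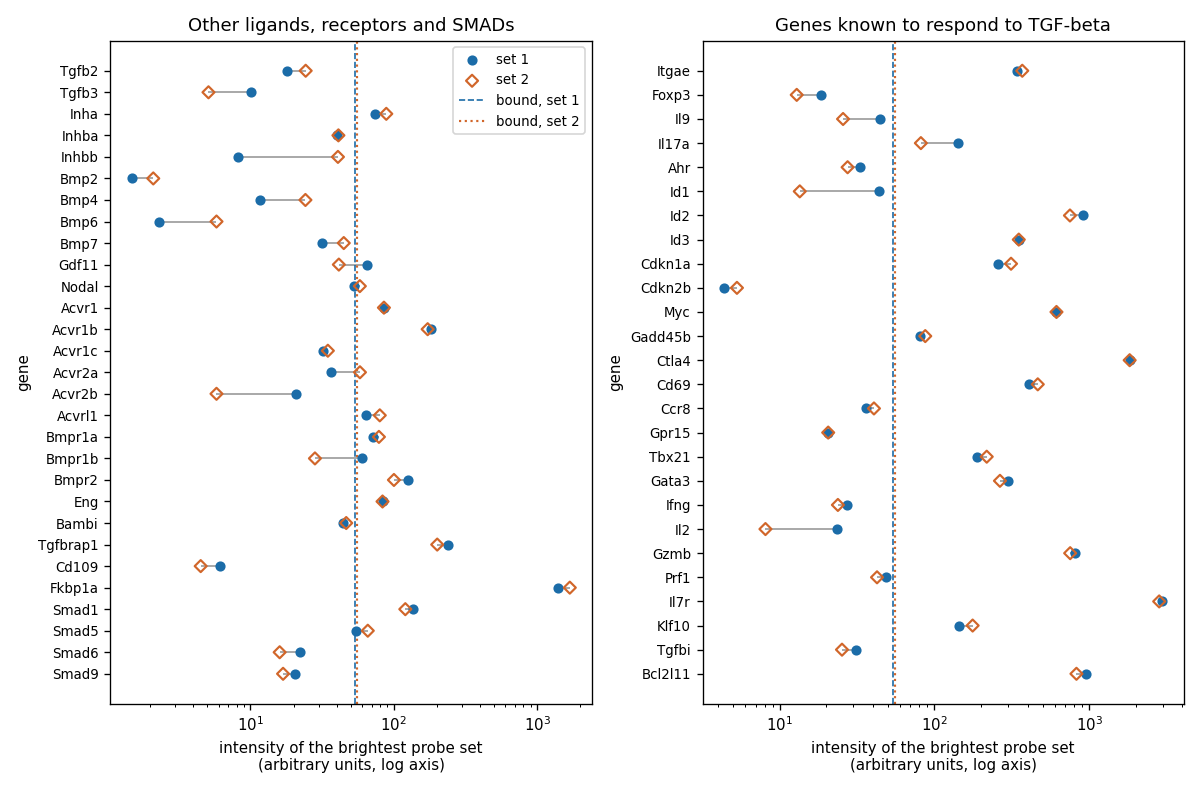
Intensity of the brightest probe set (log axis, arbitrary units; values under 1 drawn at 1) for the other ligands, receptors and SMADs (left) and for genes known to respond to TGF-beta in T cells (right). Circles are set 1, diamonds set 2 and vertical lines the bounds of 53.9 and 55.7; Fkbp1a at 1542 and Il7r at 2894 are the highest of their panels, and Foxp3 lies below both bounds.

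Several of the 10 genes are also made by other cells, and the markers of these were read beside them. In bulk RNA, fewer cells of a type and less RNA per cell cannot be told apart. Beside the counts that follow stands the 47.4% of all named genes above background. B cell markers were above background in 4 of 5 measured cases, with Ms4a1 at 377 ± 17.4, Cd79b at 165 ± 1.20, Cd79a at 108 ± 14.1 and Blk at 75.4 ± 16.7, and their summed intensity was 791.9 on set 1 and 768.9 on set 2. Pax5 was not above background at 53.9 ± 0.212. Macrophage and dendritic cell markers were above background in 1 of 7 cases, Csf1r, which read 57.3 and 146.7, with Adgre1, C1qa and Cd14 not above it at 58.1 ± 26.1, 2.40 ± 0.424 and 36.8 ± 12.0 (summed 208.4 and 377.2). Stroma and endothelium markers were above background in 2 of 8 cases, Kdr at 67.0 ± 0.0707 and Col1a2 at 63.3 ± 3.82, while Col1a1, Col3a1 and Cdh5 were not (summed 264.1 and 270.9). Platelet markers, listed because platelets carry much TGF-beta, were above background in 1 of 4 cases, Itga2b at 80.4 ± 18.7, with Pf4, Ppbp and Gp9 not above it (summed 116.5 and 151.0). Regulatory T cell markers were above background in 2 of 4 cases, Ikzf2 at 534 ± 15.3 and Nrp1 at 94.4 ± 4.45, with Foxp3 and Gpr83 not above it (summed 706.3 and 682.0). In each of these 5 lists 0 genes were at 0 on both arrays. The part of such cells in the levels of the 10 genes was not tested.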

How the data were processed

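Intensity values were deposited by the authors as 1 value per probe set and array on a linear scale. This scale was judged from the range of 0 to 8860.2. The background correction, probe summary and scaling are unknown, being not given in the sources used here. Of 45101 probe sets, 64 controls were left out. Of the other 45037, 34945 had 1 gene symbol in the platform annotation, 932 had several and 9160 were not listed and are unnamed here. All 24 probe sets of the 10 genes matched the RefSeq gene table by Entrez identifier.

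The 10 genes and the lists were chosen with earlier results of these data known. The bound came from 45 measured off-tissue genes. A gene outside the 10 is given by its brightest probe set. Differences between arrays are set 1 minus set 2 on the log2 scale, with intensities under 1 set to 1, less their median over probe sets above background, -0.025. The text names the 4 brightest genes above background in each list, the first 3 by alphabet not above it, and those over 1.5-fold apart. With 1 group of 2 arrays no p-value is given, and precision is limited by the number of arrays. Listed genes without a probe set of 1 symbol were not analysed here. The code for the calls and differences was run on simulated data. There, absent probe sets were drawn from off-tissue values of the kind that set the bound, and present ones were placed far above it. That run checks the code and does not give the error rate of the calls in these data. Calculations used Python 3.11.15, numpy 2.4.6, pandas 2.3.3 and matplotlib 3.10.9.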

Additional observations from a re-analysis of the deposited data

How the results depend on the processing

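The count of 10 genes above background was 10 with the bound at the 90th or 99th percentile, from the other organs' genes or at the overall median of probe sets, on each array alone and without probe sets ending in _s_at or _x_at. It was 9 with the median over the probe sets of a gene. Several of these settings could not lower the count. The bounds at the 90th percentile and at the overall median lie under the main bounds, and a single array is a looser rule. The brightest probe set of each of the 10 genes ends in neither _s_at nor _x_at. The 18 probe sets above background became 15 to 19 under the alternative bounds and 19 on either array alone. The median absolute difference of 0.131 was 0.136 after quantile normalization, 0.131 without centring or with intensities under 16 set to 16, and 0.189 over all 24 probe sets. With the bound at the 99th percentile the counts fell to 0 for other ligands, macrophage and dendritic cell, stroma and endothelium, and platelet markers, to 1 for other SMADs and regulatory T cell markers, to 2 for B cell markers and to 3 for other receptors. With the bound from the other organs' genes they were 0 for other ligands, stroma and endothelium, and platelet markers and 1 for other SMADs. With the bound at the 90th percentile they were 2 for other ligands and for macrophage and dendritic cell markers, and at the median of all probe sets 4 and 3. With the median over probe sets they were 5 for other receptors and 1 for other SMADs, stroma and endothelium, and regulatory T cell markers. On single arrays other ligands were at 2 on each, and macrophage and dendritic cell markers ranged from 1 to 3. The other 107 counts and differences under alternatives stayed within 1.5 times or within the spread. With the median over probe sets the level became 109.9 for Tgfbr2, against 1072.5 with the brightest, 37.55 against 232.85 for Tgfbr1 and 66.6 against 214.3 for Smad3, and those of the other 7 genes also moved by more than 1 SD. The levels could not change without _s_at and _x_at probe sets, since none of these is the brightest of its gene. No paired analysis was possible because there is 1 group. Genes near the bounds are limited by signal over background.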
